A study of Sus scrofa with 2 samples.

Results

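Collagen and laminin chains, the secreted proteins from which basement membranes and interstitial fibres are built, were followed through the cell classes of pig kidney cortex. Members were all genes whose deposited symbol is a collagen chain (COL, number, A, number) or a laminin chain (LAMA, LAMB or LAMC and 1 digit) and that had at least 10 unique molecular identifiers (UMIs, by which copies of the same RNA molecule are counted once) over both libraries. The rule matched 48 symbols, of which COL9A3 had 0 UMIs, and left 47 genes of 31908, 38 collagen and 9 laminin chains. Their totals in the nuclei kept here ran from 12 UMIs (COL2A1) to 33974 UMIs (LAMB1), and 39 members had at least 100. Another 4 chains (COL4A1, LAMA5, COL24A1 and LAMB4) carry only an identifier in the deposited table and fall outside the rule. They were named through a table of gene identifiers and are given beside the members where they complete a family.

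Renal cortex of pig kidneys from a slaughterhouse was sampled at 2 points, either with no perfusion (unperfused) or once machine perfusion had run for 120 min (perfused), and both conditions shared a cold storage at 4 °C of about 2 h. Perfusion ran ex vivo at 100 mmHg and 37 °C with a salt solution free of red blood cells, a setting chosen to raise glomerular pressure. Nuclei of each condition gave 1 single-nucleus RNA sequencing library, so no difference between conditions has a replicate check, and pressure, warmth and time cannot be told apart. Breed, sex, age and the number of animals are not given in the sources used here, nor whether both pieces of cortex came from the same animal.

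Collagens are trimers of alpha chains. Collagen IV forms the meshwork of basement membranes, and its alpha3, alpha4 and alpha5 chains build the mature glomerular basement membrane, where inherited loss of any of them causes Alport syndrome. Laminins are heterotrimers of 1 alpha, 1 beta and 1 gamma chain that polymerise at the cell surface and start basement membrane assembly. Fibrillar collagens I and III are the bulk of interstitial and scar matrix, and fibroblasts are their best known source in the kidney.

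After the filters, 6389 unperfused nuclei (median 3755 UMIs) and 5421 perfused nuclei (median 4383 UMIs) remained, 11810 in all, and members took 0.235% and 0.256% of their UMIs. The libraries shared 14 barcodes before the filters. Clustering without any collagen or laminin gene among the variable genes gave 20 clusters, which marker lists free of these genes placed in 16 classes. Named classes were podocytes (PODO, 89 unperfused and 30 perfused nuclei), stromal cells (STROMA, 375 and 534), endothelial cells (EC, 1296 and 813), immune cells (IMM, 288 and 846), proximal tubule (PT, 1778 and 1201), injured PT, loop of Henle (LOH, 748 and 805), principal cells (PC, 176 and 151), intercalated cells (IC-A and IC-B), the connecting (CNT) and distal convoluted (DCT) tubule, and cycling cells. Clusters 11, 14 and 17 stayed unnamed, and the leading genes of cluster 14 included DPP10, SLIT3 and CDH18. The level of a gene in a class and library is its summed UMIs per 1000000 UMIs of all genes there (CPM). Levels of 1 gene are compared between classes below, and levels of different genes are not, since the values are not per length. Intervals are exact Poisson or binomial intervals at 95% and cover counting error only.

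Limits on the class names bear on the values that follow. The cluster named IMM went against its name in part: when clustered again, only 1 of its 6 subclusters took the immune name, and its subcluster 1 (71 unperfused and 181 perfused nuclei) was named stromal from the same lists, with LUM and DPT, proteins of collagen fibrils, among its leading genes. Its subcluster 0 (20 and 251 nuclei) stayed unnamed and carried the stromal complement gene C7 at 1194 CPM, against 338 CPM in subcluster 2, where the leukocyte gene PTPRC stood at 1232 CPM. Its subcluster 4 (57 and 99 nuclei) was named EC, with EC markers summing to 8627 CPM against 2611 CPM of immune markers. Mitochondrial genes took 34308 CPM in subcluster 1 and 22269 CPM in subcluster 0, against 5293 CPM in STROMA. Values given for IMM are therefore those of a mixed cluster. In STROMA, 3 of 11 subclusters took a stromal name. Among the others the leading genes included the podocyte gene PTPRO in subcluster 7 (14 unperfused and 24 perfused nuclei), the tubule gene CUBN in subcluster 9 (19 and 4) and TMEM72 in subcluster 10 (16 and 5). Free RNA, estimated from LRP2, CUBN, SLC12A1 and UMOD, genes of tubule cells, came to 29.8% of UMIs in unperfused and 16.4% in perfused STROMA, 10.8% and 9.90% in EC, and 6.96% and 3.80% in PODO.

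**Figure D1:**
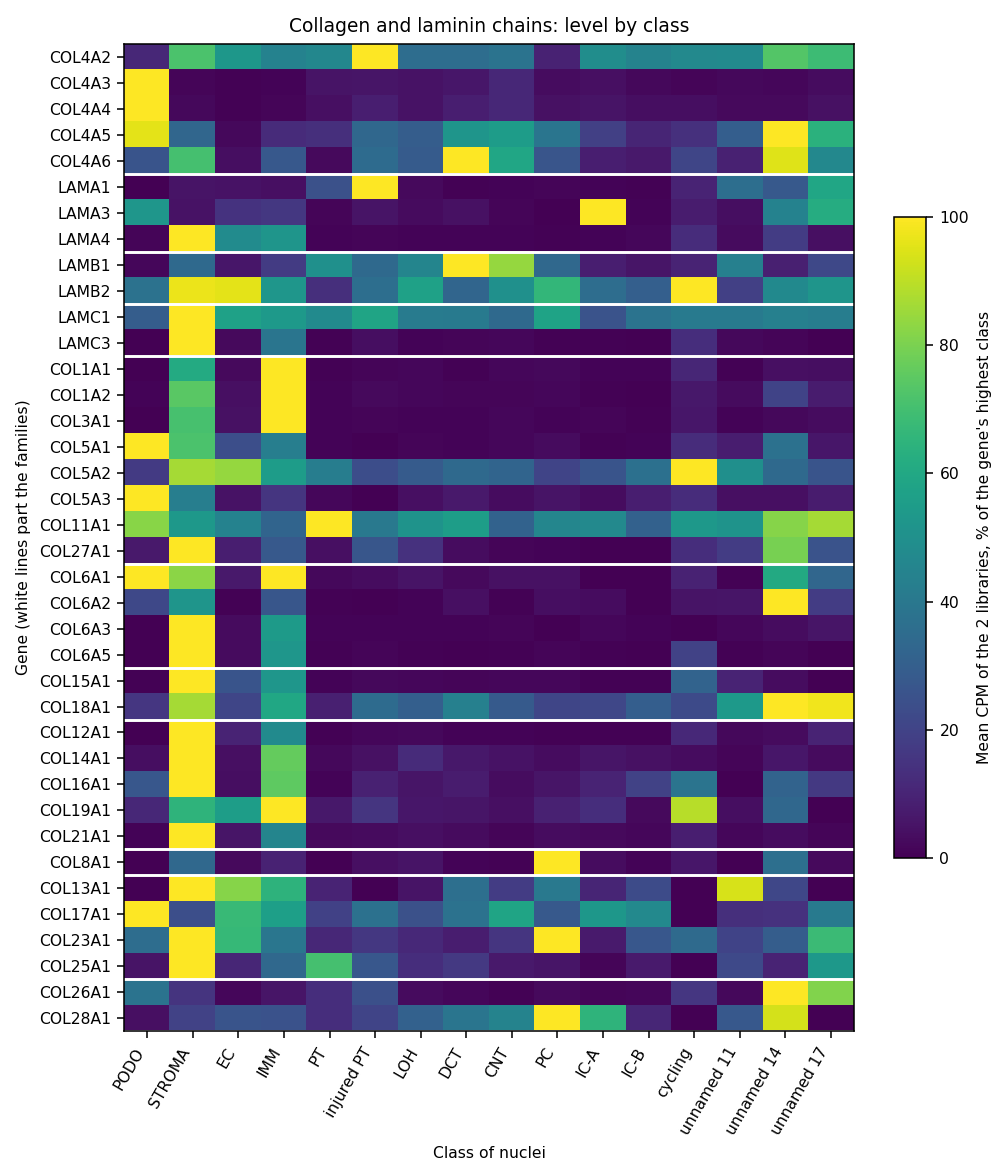
Level of 38 of the 39 members with at least 100 UMIs (rows, grouped by family) in the 16 classes (columns), as the mean CPM of the 2 libraries in percent of the gene's highest class. COL4A3 and COL4A4 are bright in PODO alone, a block of FACIT, multiplexin and collagen VI chains is bright in STROMA and IMM, and LAMB1 is bright in DCT and CNT.

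STROMA held the highest level, as the mean of the 2 libraries, of 14 of the 47 members, more than any other class, and PODO that of 6. IMM held 5, among them COL1A1, COL1A2 and COL3A1, and leaving that mixed cluster out raised the STROMA count to 17. Cluster 14 held 5 and PC 4 members. The highest class was the same in both libraries for 30 of the 47 members, and for 26 of the 39 with at least 100 UMIs. For 15 of the 47 the counting interval of that class also lay apart from the next class in both libraries. The shares of all genes that meet these conditions were not computed, so the counts are not read as a trait of these chains. Highest stands below for the highest mean of the 2 libraries. The summed level of all members was 9085 and 9203 CPM in unperfused and perfused PODO, 5764 and 5791 CPM in STROMA, and 1537 and 1567 CPM in EC.

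Collagen IV set the podocytes apart. COL4A3, the alpha3 chain, stood in PODO at 5128 CPM in the unperfused library (95% interval 4914 to 5348, 2169 UMIs) and 5005 CPM in the perfused library (4715 to 5307, 1117 UMIs), 9.12 times its mean level in the next class, CNT. COL4A4, the alpha4 chain, reached 2626 CPM in the unperfused library (95% interval 2474 to 2785, 1111 UMIs) and 2800.2 CPM in the perfused library (2585 to 3029, 625 UMIs). In CNT these genes were at 504 and 607 CPM (1128 and 860 UMIs) and 321 and 274 CPM (718 and 388 UMIs), and in EC at 35.3 and 12.4 CPM (93 and 25 UMIs) and 26.2 and 14.9 CPM (69 and 30 UMIs). All 89 unperfused and all 30 perfused podocyte nuclei had a UMI of COL4A3 and of COL4A4, against 6.25% and 2.58% of EC nuclei for COL4A3, at median depths of 4458 and 7630 UMIs in PODO and 1876 and 2204 in EC. COL4A5, their X-linked partner chain, was detected together with both in 70 of 89 and 26 of 30 podocyte nuclei.

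COL4A5 was less restricted than its partners. It stood at 508 and 551 CPM (215 and 123 UMIs) in PODO, and its levels in cluster 14, 526 and 576 CPM (191 and 146 UMIs), were within the counting intervals of those. CNT and DCT followed with 292 and 316 and 274 and 302 CPM in the unperfused and the perfused library. All 3 chains were found together in 32.8% and 48.4% of CNT nuclei, in 32.0% and 45.9% of DCT nuclei and in 9.67% and 12.8% of PT nuclei. COL4A6, which pairs with COL4A5 in the basement membranes of Bowman's capsule and some tubules, had its highest mean level in DCT at 181 and 245 CPM (277 and 283 UMIs), close to cluster 14 at 157 and 249 CPM (57 and 63 UMIs), which led in the perfused library. In STROMA it stood at 158 and 143 CPM (187 and 269 UMIs), and the mesangial-like subcluster of STROMA (30 unperfused and 51 perfused nuclei) held 379.6 CPM (87 UMIs, 304 to 468) of COL4A6 and 428 CPM (98 UMIs, 347 to 521) of COL4A5.

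The ubiquitous chains of collagen IV were spread differently. COL4A2 was highest in injured PT at 668 and 906 CPM (377 and 643 UMIs), and stood at 556 and 573 CPM (658 and 1081 UMIs) in STROMA and 399.7 and 433 CPM (1053 and 872 UMIs) in EC. Its lowest levels were in PC at 79.9 and 69.6 CPM (59 and 57 UMIs) and in PODO at 106 and 67.2 CPM (45 and 15 UMIs), the class where COL4A3 and COL4A4 were highest. COL4A1, one of the 4 genes outside the rule, stood at 173 and 203 CPM in STROMA, 131 and 117 CPM in EC and 69.2 and 81.00 CPM in PT. Across the 16 classes, levels as log2 of CPM plus 5, correlated with Pearson r 0.97 for COL4A3 with COL4A4, 0.79 for COL4A1 with COL4A2 and 0.75 for COL4A5 with COL4A6. These are descriptions over classes that share libraries. In the RefSeq annotation of Sscrofa11.1 each of these 3 pairs lies side by side with no protein-coding gene between.

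**Figure D2:**
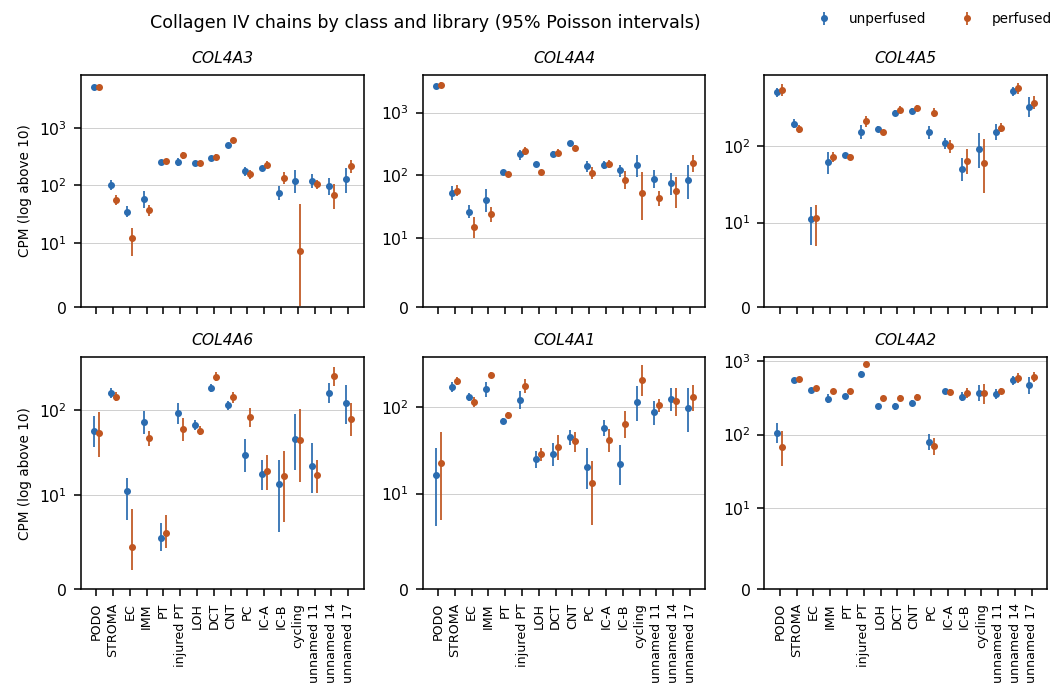
CPM (log scale above 10) of 6 collagen IV chains in each class, unperfused in blue and perfused in orange, with exact 95% Poisson intervals. COL4A3 and COL4A4 stand at 5128 and 5005 CPM and at 2626 and 2800 CPM in podocytes, and the highest COL4A3 level elsewhere, in CNT, is 607 CPM. COL4A2 is highest in injured PT and lowest in PC and PODO.

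Among the laminins, LAMB1, the beta1 chain of many tubular and vascular laminins, was highest in tubule classes, though not in all of them. It stood at 1418 CPM in the unperfused library (95% interval 1359 to 1479, 2175 UMIs) and 1579.9 CPM in the perfused library (1508 to 1654, 1823 UMIs) in DCT. CNT followed at 1263 and 1258 CPM (2827 and 1782 UMIs), PT at 721 and 779 CPM (7311 and 6436 UMIs) and LOH at 749.7 and 618 CPM (2486 and 3060 UMIs). STROMA held 535 and 487 CPM (633 and 918 UMIs), the tubule classes IC-A 119 and 134 CPM (178 and 135 UMIs) and IC-B 97.9 and 72.5 CPM (66 and 35 UMIs), and EC 89.6 and 90.3 CPM (236 and 182 UMIs), and the lowest level was in PODO at 26.00 and 22.4 CPM (11 and 5 UMIs). Its usual gamma partner LAMC1 did not share this order: it was highest in STROMA at 232 and 244 CPM (275 and 461 UMIs) and lay at 117 and 111 CPM in PT and 91.9 and 103 CPM in DCT, and the correlation of the 2 genes over the 16 classes was 0.29. LAMB2, the beta chain of the mature glomerular basement membrane, was rare and was at 11.8 and 4.48 CPM (5 and 1 UMIs) in PODO, 31.3 and 10.6 CPM (37 and 20 UMIs) in STROMA and 30.4 and 10.9 CPM (80 and 22 UMIs) in EC, which at these counts does not single out podocytes.

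The alpha chains divided the classes between them. LAMA4, the alpha chain of vascular laminins, was highest in STROMA at 335 CPM in the unperfused library (95% interval 303 to 369, 396 UMIs) and 425 CPM in the perfused library (396 to 455, 801 UMIs) and reached 187 and 180.2 CPM (493 and 363 UMIs) in EC. Within EC, the EHD3-positive glomerular subcluster held 37.4 CPM (28 UMIs, 24.9 to 54.1) of it, the largest subcluster 289.8 CPM (470 UMIs, 264 to 317), and the 17 unperfused and 4 perfused nuclei of subcluster 6, led by PGM5 and including the lymphatic genes PROX1 and MMRN1, 881 CPM (48 UMIs, 649 to 1168). LAMA1, the alpha chain of embryonic and tubular laminin, was highest in injured PT at 129 and 156 CPM (73 and 111 UMIs), above PT at 39.2 and 32.1 CPM (398 and 265 UMIs). Within EC the arterial subcluster held 170 and 130 CPM (13 and 8 UMIs) of LAMA1. LAMA3, the epithelial alpha chain of anchoring laminins, was highest in IC-A at 166 and 137 CPM (248 and 138 UMIs) and stood at 82.7 and 76.2 CPM (35 and 17 UMIs) in PODO. In cluster 17 LAMA3 had 22.5 and 165 CPM (3 and 44 UMIs), and all 3 unperfused UMIs lay in 1 nucleus. LAMA5, outside the rule, is the alpha chain of mature glomerular and tubular laminin and was found at 330.5 and 383 CPM (120 and 97 UMIs) in cluster 14, 236 and 381 CPM (174 and 312 UMIs) in PC and 210.4 and 246 CPM (89 and 55 UMIs) in PODO.

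LAMC3, the gamma3 chain, was highest in STROMA. It stood there at 240.04 CPM in the unperfused library (95% interval 213 to 269.6, 284 UMIs) and 268 CPM in the perfused library (245 to 293, 506 UMIs), in IMM at 83.99 and 114 CPM (52 and 257 UMIs) and in EC at 4.55 and 7.45 CPM (12 and 15 UMIs). LAMB3, a partner of LAMA3 in anchoring laminin, had 98 UMIs over all kept nuclei and was highest in PC at 10.8 and 18.3 CPM (8 and 15 UMIs). The highest class of LAMA3 was IC-A, where LAMB3 had 1.34 and 2.98 CPM (2 and 3 UMIs), so these chains did not share a highest class.

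**Figure D3:**
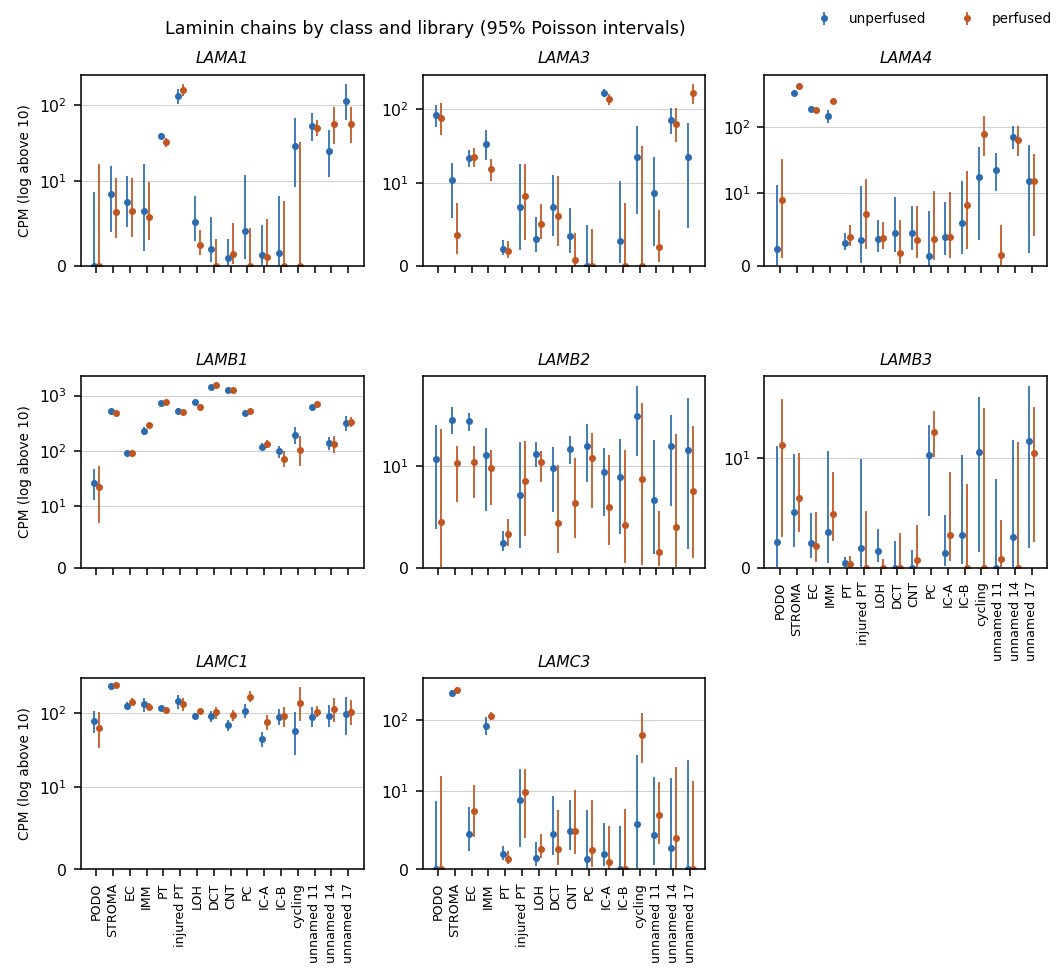
CPM (log scale above 10) of 8 of the 9 laminin members in each class, unperfused in blue and perfused in orange, with exact 95% Poisson intervals. LAMB1 peaks in DCT and CNT, LAMA4 and LAMC3 in STROMA, LAMA1 in injured PT and LAMA3 in IC-A, while LAMC1 is spread over all classes.

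The chains of interstitial collagen were thinly covered in these nuclei. COL1A1 and COL1A2, which make collagen I, stood in STROMA at 114 and 131 CPM (135 and 248 UMIs) and 194 and 210.5 CPM (230 and 397 UMIs), and COL3A1, the chain of collagen III, at 245 and 220.02 CPM (290 and 415 UMIs). The mixed IMM cluster was above STROMA for all 3, with 191 and 212 CPM of COL1A1, and within it the stromal-named subcluster 1 held 443 CPM (334 UMIs, 397 to 493) against 72.2 CPM (31 UMIs, 49.04 to 102) in subcluster 2. In EC these genes were at 3.80 and 6.45, 8.35 and 13.4 and 9.87 and 20.4 CPM. A UMI of each of the 3 was found in 21 of 375 unperfused (5.60%) and 70 of 534 perfused (13.1%) stromal nuclei, and 164 and 224 stromal nuclei had none. COL1A1 and COL3A1 followed each other over the classes with r 0.98.

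Inside STROMA the chains of collagens I and III had their highest levels in the fibroblast-like subcluster 8, a small one whose leading genes included F3 and PI16, while most of their stromal UMIs lay in other subclusters. It held 642 CPM (47 UMIs, 472 to 853) of COL1A1, 819 CPM (60 UMIs, 625 to 1055) of COL1A2 and 724 CPM (53 UMIs, 542 to 947) of COL3A1, against 8.73, 43.6 and 43.6 CPM in the mesangial-like subcluster 5. Subcluster 8 had 26 unperfused nuclei and 2 perfused ones, so its levels are in effect those of the unperfused library. COL11A1, a minor fibrillar chain of cartilage, was at 246 CPM (18 UMIs, 146 to 388) there, yet over the classes it was highest in PT at 69.1 and 65.3 CPM (701 and 539 UMIs). COL5A1 and COL5A3, chains of the collagen V that starts fibrils, were highest in PODO at 87.5 and 94.1 CPM (37 and 21 UMIs) and 85.1 and 116 CPM (36 and 26 UMIs). For COL5A1 the intervals overlapped those of STROMA, at 58.3 and 71.6 CPM (69 and 135 UMIs), in both libraries, and for COL5A3 they did not. COL5A2 was broad and, by mean level, highest in cycling cells at 155 and 279 CPM (27 and 32 UMIs), with 183 and 192 CPM (216 and 362 UMIs) in STROMA, 167 and 197 CPM (440 and 397 UMIs) in EC and 97.9 and 85.00 CPM (993 and 702 UMIs) in PT. COL27A1 was highest in STROMA at 63.4 and 68.4 CPM (75 and 129 UMIs). COL24A1, outside the rule, was highest in IC-A at 74.1 and 74.6 CPM (111 and 75 UMIs).

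Collagen VI forms a beaded filament network around cells, and 2 of its 5 members, COL6A3 and COL6A5, were highest in STROMA. COL6A3 stood at 109.9 and 83.8 CPM (130 and 158 UMIs) in STROMA against 2.66 and 2.98 CPM (7 and 6 UMIs) in EC, and COL6A5 at 106 and 115 CPM (126 and 216 UMIs) against 2.66 and 3.47 CPM (7 and 7 UMIs). COL6A1 was at 89.8 and 58.2 CPM (38 and 13 UMIs) in PODO and 51.6 and 71.04 CPM (61 and 134 UMIs) in STROMA, and the intervals of these classes overlapped in both libraries. COL6A2 was highest in cluster 14 at 57.8 and 47.4 CPM (21 and 12 UMIs). The multiplexins COL15A1 and COL18A1, basement membrane collagens with heparan sulfate or chondroitin sulfate chains, differed: COL15A1 was highest in STROMA at 279.8 and 351 CPM (331 and 662 UMIs) with 82.4 and 80.4 CPM (217 and 162 UMIs) in EC, whereas COL18A1 lay in a similar range in clusters 14 and 17 and in STROMA, where it was at 93.8 and 108 CPM (111 and 204 UMIs). Within EC, COL18A1 was at 102 CPM (14 UMIs, 55.5 to 170.4) in the arterial subcluster and 20.96 CPM (34 UMIs, 14.5 to 29.3) in the largest one.

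The FACIT collagens, which sit on the surface of fibrils, were mostly stromal. COL12A1 was in STROMA at 953 CPM in the unperfused library (95% interval 898 to 1009.8, 1127 UMIs) and 941 CPM in the perfused library (897 to 985, 1774 UMIs), and its next named class was IMM with 368 and 541 CPM (228 and 1218 UMIs). Among stromal subclusters it ran from 118 CPM (27 UMIs, 77.6 to 171) in the mesangial-like subcluster to 1679.8 CPM (1088 UMIs, 1581 to 1783) in subcluster 0. COL14A1 was at 272 and 254 CPM (322 and 479 UMIs) in STROMA and COL21A1 at 123 and 147 CPM (145 and 277 UMIs). COL16A1 was found there at 34.7 and 33.4 CPM (41 and 63 UMIs). COL19A1 was rare, with 37.1 and 43.9 CPM (23 and 99 UMIs) in IMM, 17.7 and 34.99 CPM (21 and 66 UMIs) in STROMA and 14.4 and 30.8 CPM (38 and 62 UMIs) in EC, and in EC it belonged to the glomerular subcluster, with 107 CPM (80 UMIs, 84.8 to 133) against 3.70 CPM (6 UMIs, 1.36 to 8.05) in the largest subcluster.

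COL8A1, the network-forming alpha1 chain of collagen VIII known from vessel walls and from sclerosing glomeruli, was highest in PC at 192 CPM in the unperfused library (95% interval 162 to 227, 142 UMIs) and 549.6 CPM in the perfused library (499.98 to 603, 450 UMIs). It was found in 65 unperfused and 95 perfused nuclei of that class. Cluster 14 held 146 and 126 CPM (53 and 32 UMIs) and STROMA 139 and 111 CPM (165 and 210 UMIs), where the fibroblast-like subcluster 8 had 437 CPM (32 UMIs, 299 to 617) and the mesangial-like and the smooth muscle or pericyte-like subclusters 327 CPM (75 UMIs, 257 to 410.2) and 316 CPM (108 UMIs, 259.6 to 382). Subclusters 3 and 6 of STROMA had 0 UMIs.

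Transmembrane collagens, which are anchored in the plasma membrane and can be shed, were found in separate places. COL23A1 was at 20.3 and 62.3 CPM (15 and 51 UMIs) in PC and 32.1 and 50.4 CPM (38 and 95 UMIs) in STROMA, nearly equal as means of the libraries. Within the stroma the mesangial-like subcluster had 223 CPM (51 UMIs, 166 to 293), and within EC the arterial subcluster had 414 CPM (57 UMIs, 313 to 536). COL25A1 was at 52.4 and 31.8 CPM (62 and 60 UMIs) in STROMA and at 38.6 and 20.6 CPM (392 and 170 UMIs) in PT. Within STROMA the smooth muscle or pericyte-like subcluster held 299 CPM (102 UMIs, 244 to 363) of it, and the fibroblast-like and mesangial-like subclusters 0 UMIs. COL13A1 and COL17A1 had 101 and 247 UMIs over all kept nuclei. COL17A1, a hemidesmosome collagen, had its highest mean level in PODO on 14.2 and 13.4 CPM (6 and 3 UMIs) and was at 15.2 and 3.47 CPM (40 and 7 UMIs) in EC and 4.04 and 1.33 CPM (41 and 11 UMIs) in PT. By mean level COL26A1 was highest in cluster 14 at 79.9 and 86.9 CPM (29 and 22 UMIs) and COL28A1 in PC at 24.4 and 35.4 CPM (18 and 29 UMIs), but in the unperfused library COL26A1 was higher in cluster 17, at 89.9 and 44.9 CPM in the libraries, and COL28A1 in cluster 14, at 44.1 and 11.8 CPM. The 8 members under 100 UMIs (COL2A1, COL9A1, COL8A2, COL11A2, COL6A6, COL22A1, COL10A1 and LAMB3) ranged from 12 to 98 UMIs.

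The libraries were then compared, which asks how the chains differ between unperfused and perfused cortex. A member was called higher or lower in the perfused library when its CPM differed by more than 1.5-fold and the counting interval of the log2 ratio excluded 0, among genes with at least 20 UMIs in the class. The share of all such genes that met this rule is given as background. Because nuclei are not replicates, the calls compare 2 libraries and not 2 conditions.

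Summed over all kept nuclei, the chains of collagens I and III were higher in the perfused library. COL1A1 stood at 11.1 and 29.6 CPM (296 and 803 UMIs, log2 ratio 1.42, 95% interval 1.22 to 1.61), COL3A1 at 22.03 and 47.1 CPM (588 and 1277 UMIs, log2 ratio 1.10, 95% interval 0.95 to 1.24) and COL1A2 at 19.5 and 40.9 CPM (520 and 1110 UMIs, log2 ratio 1.07, 95% interval 0.92 to 1.22). Of the other fibrillar members COL5A1 was at 0.76 (0.51 to 1.02), COL27A1 at 0.29 (0.03 to 0.55), COL5A2 at 0.06 (-0.02 to 0.14) and COL11A1 at -0.17 (-0.29 to -0.06). COL4A3 was at 305 and 251 CPM (8130 and 6811 UMIs, log2 ratio -0.28, 95% interval -0.32 to -0.23). The make-up of the libraries moved with these values: STROMA made up 5.87% of unperfused and 9.85% of perfused nuclei, IMM 4.51% and 15.6%, and PODO 1.39% and 0.553%. Within STROMA the ratios were smaller, 0.20 (-0.10 to 0.52) for COL1A1, -0.16 (-0.38 to 0.07) for COL3A1 and 0.11 (-0.12 to 0.36) for COL1A2, and each interval included 0. The make-up of STROMA differed too, since the fibroblast-like subcluster where these chains were highest had very few perfused nuclei. The part of that difference in the stromal ratios was not tested.

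In STROMA, 2 of the 35 members tested were higher in the perfused library (background 8.12%) and 6 were lower (background 10.6%). The median log2 ratio of members was 0.043, and that of all genes tested -0.030. COL19A1 was at 17.7 and 34.99 CPM (21 and 66 UMIs) in the unperfused and perfused library, a log2 ratio of 0.98 (0.25 to 1.76), and COL23A1 at 32.1 and 50.4 CPM (38 and 95 UMIs), a ratio of 0.65 (0.09 to 1.23). The lower members were LAMB2 at 31.3 and 10.6 CPM (37 and 20 UMIs) with -1.56 (-2.42 to -0.74), LAMA3 with -1.57 (-3.13 to -0.13), COL11A1 with -1.05 (-1.65 to -0.45), COL4A3 with -0.88 (-1.27 to -0.49), COL6A2 with -0.78 (-1.46 to -0.11) and COL25A1 with -0.72 (-1.26 to -0.18). The well covered chains barely differed: COL12A1 was at -0.02 (-0.13 to 0.09), COL4A2 at 0.04 (-0.10 to 0.19) and LAMC1 at 0.07 (-0.15 to 0.29). LAMA4 and COL15A1 were higher with intervals above 0 but below 1.5-fold, at 0.34 (0.17 to 0.52) and 0.33 (0.13 to 0.52).

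Several of these stromal values sat beside differences in the nuclei. COL4A3 is a podocyte and tubule gene by level, the free RNA share of STROMA was 29.8% unperfused and 16.4% perfused, and after subtraction of free RNA its log2 ratio was 0.091. Its stromal UMIs lay mostly in subclusters led by genes of other classes: it stood at 275 CPM (53 UMIs, 206 to 359) in subcluster 9, 316 CPM (49 UMIs, 234 to 418) in subcluster 10 and 263 CPM (31 UMIs, 179 to 373) in subcluster 7, and at 0 UMIs in the mesangial-like subcluster. The summed level of the 11 PT markers in STROMA, all of them detected, was 2038 CPM unperfused and 1005 CPM perfused. COL11A1 and COL6A2 were at 246 and 137 CPM in the fibroblast-like subcluster 8, which was 26 nuclei against 2. Equal weighting of the stromal subclusters leaves out those with few nuclei in a library, among them subclusters 8, 9 and 10. The ratio of COL11A1 was then -0.51 and that of COL6A2 -1.13. The part of these values in the differences was not tested further.

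In EC, 3 of the 34 members tested were higher (background 2.14%) and 7 lower (background 9.87%), with a median log2 ratio of 0.008 beside -0.127 for all genes tested. COL19A1 was higher here as in STROMA, at 14.4 and 30.8 CPM (38 and 62 UMIs) with 1.09 (0.49 to 1.72). COL3A1 and COL5A1 were higher with 1.04 (0.30 to 1.81) and 0.68 (0.08 to 1.29). Over all kept nuclei the ratios of COL3A1 and COL5A1 were 1.10 and 0.76. The 13 stromal markers summed to 1319 CPM in unperfused and 1537 CPM in perfused EC. The part of stromal RNA in the EC values was not tested. The lower members were LAMB2 at 30.4 and 10.9 CPM (80 and 22 UMIs) with -1.48 (-2.23 to -0.78), COL17A1 at 15.2 and 3.47 CPM (40 and 7 UMIs) with -2.13 (-3.53 to -0.95), COL21A1 with -2.42 (-4.13 to -1.06), COL4A3 with -1.51 (-2.21 to -0.86), COL4A4 with -0.81 (-1.48 to -0.18), COL4A6 with -1.30 (-2.56 to -0.18) and COL8A1 with -1.34 (-2.52 to -0.28). Each of the 7 was under 31 CPM except COL4A3 in the unperfused library, at 35.3 CPM. The 11 PT markers, all with a UMI, summed to 864 CPM in unperfused and 750.5 CPM in perfused EC, and after subtraction of free RNA the called members went from 10 to 5, with the 3 higher ones, LAMB2 and COL17A1 still called. COL8A1 and COL4A4 were then no longer called, at -2.61 (-5.27 to 0.05) and -1.78 (-5.36 to 1.81), and COL4A3, COL4A6 and COL21A1 gave no value. The chains of the vascular basement membrane were near 0, with LAMA4 at -0.05 (-0.25 to 0.14), COL4A2 at 0.11 (-0.02 to 0.25), LAMC1 at 0.18 (-0.05 to 0.41) and COL15A1 at -0.03 (-0.34 to 0.27).

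In PODO, 0 of the 12 members tested were called in either direction (background 3.89% higher and 6.25% lower). COL4A3 differed by -0.04 (-0.14 to 0.07), COL4A4 by 0.09 (-0.05 to 0.24) and COL4A5 by 0.12 (-0.21 to 0.44), so that a 1.5-fold difference of any of the 3 lay outside the counting interval. The other 9 members had at most 62 UMIs in podocytes, and their intervals were wide, as for COL5A1 at 0.11 (-0.74 to 0.92). In PT, 0 of 33 members were higher (background 1.97%) and 3 were lower (background 13.0%). These were COL25A1 at 38.6 and 20.6 CPM (392 and 170 UMIs) with -0.91 (-1.18 to -0.65), COL17A1 with -1.60 (-2.71 to -0.62) and COL28A1 with -0.97 (-1.76 to -0.23). LAMB1, with 7311 and 6436 UMIs in PT, was at 0.11 (0.06 to 0.16).

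**Figure D4:**
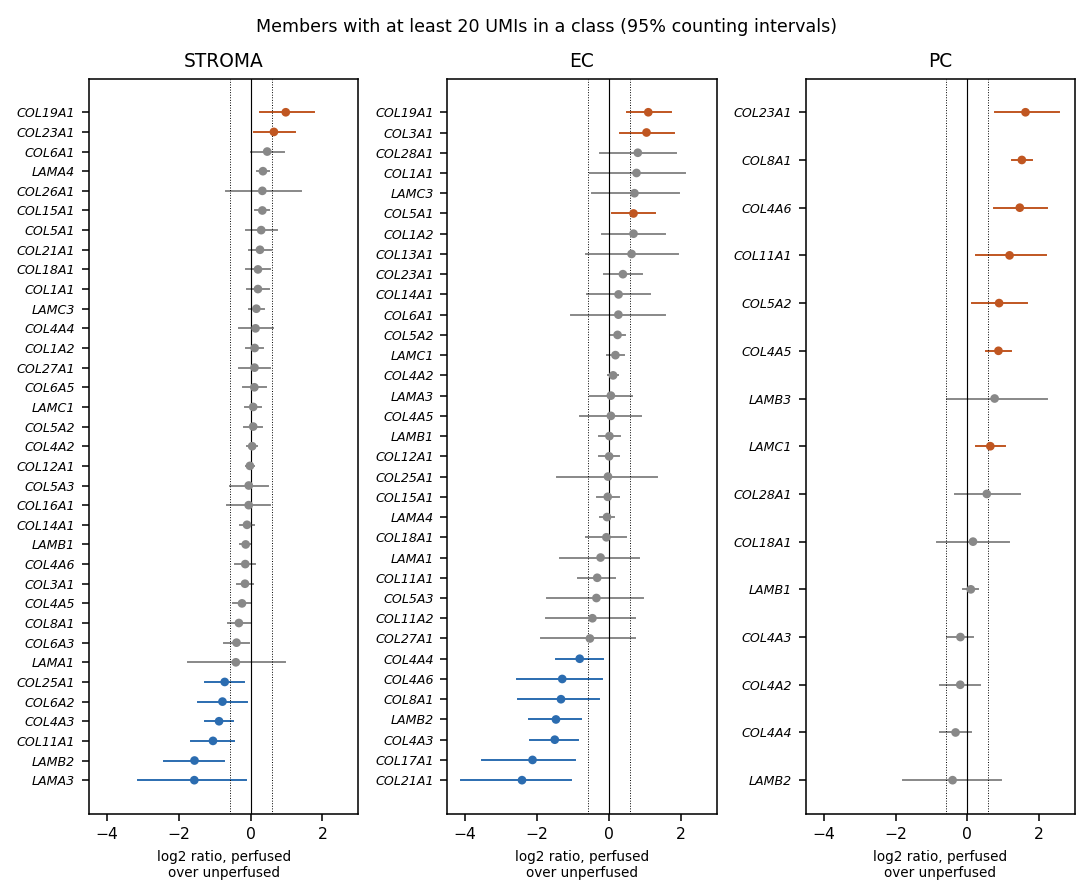
Log2 ratio of perfused over unperfused CPM of the members with at least 20 UMIs in STROMA, EC and PC, with 95% counting intervals; orange is called higher, blue called lower, and dotted lines mark 1.5-fold. Most members of STROMA and EC lie between the dotted lines, whereas 8 of the 15 members of PC lie to the right of them, of which 7 were called.

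The principal cells were picked for this comparison after their values were seen. Of the 15 members tested in PC, 7 were higher in the perfused library (background 6.04%) and 0 lower (background 13.0%), and the median log2 ratio was 0.638 beside -0.114 for all genes tested. COL8A1 went from 192 to 549.6 CPM, 1.52 (1.24 to 1.80), and its UMIs lay in 65 unperfused and 95 perfused nuclei, with at most 29 in any of them. COL23A1 was at 20.3 and 62.3 CPM (15 and 51 UMIs) with 1.62 (0.76 to 2.55), and COL4A6 at 29.8 and 81.8 CPM (22 and 67 UMIs) with 1.46 (0.74 to 2.22). COL4A5, the partner chain of COL4A6, was at 152 and 276 CPM (112 and 226 UMIs) with 0.86 (0.53 to 1.20). COL11A1, COL5A2 and LAMC1 were higher with 1.17 (0.24 to 2.18), 0.88 (0.13 to 1.67) and 0.64 (0.23 to 1.05). LAMA5, outside the rule, was at 236 and 381 CPM (174 and 312 UMIs) with 0.69 (0.42 to 0.97). The other collagen IV chains of PC were not called, with COL4A3 at -0.19 (-0.56 to 0.17), COL4A4 at -0.33 (-0.75 to 0.09) and COL4A2 at -0.20 (-0.75 to 0.35), and neither was LAMB1 at 0.10 (-0.11 to 0.30).

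The 7 markers of this class did not move together. The water channel AQP2 was at 989.7 and 993 CPM, log2 ratio 0.00 (-0.14 to 0.15), and AQP3 at -0.09 (-0.45 to 0.26). SCNN1G, SCNN1B and FXYD4 were at 0.22 (0.08 to 0.37), 0.25 (0.06 to 0.43) and 0.36 (0.20 to 0.52), while HSD11B2 was at -0.63 (-1.09 to -0.16) and the vasopressin receptor AVPR2 at -1.37 (-2.48 to -0.35). The summed level of the 6 CNT markers in PC was 361 CPM unperfused and 154 CPM perfused. That of the 7 IC-A markers was 242 and 118 CPM, that of the 11 PT markers 546 and 332 CPM. The 13 stromal markers summed to 126 and 105 CPM. Median depth was 3758 and 5383 UMIs per nucleus. With each nucleus thinned to 1000 UMIs, 7 members were left to compare in PC and 1 was called: COL8A1 stayed higher at 1.77 (1.16 to 2.41), COL4A5 and LAMC1 were at 0.67 (-0.07 to 1.43) and 0.23 (-0.58 to 1.04), and COL23A1, COL4A6, COL5A2 and COL11A1 gave no value. The part of the marker differences was not tested.

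Other genes of matrix assembly in PC, from 5 lists of partner genes, differed as well. The heparan sulfate proteoglycan HSPG2 (perlecan) was at 367 and 729 CPM (271 and 597 UMIs) with 0.99 (0.78 to 1.20), and P3H2, a prolyl hydroxylase that acts on collagen IV, at 211 and 451 CPM (156 and 369 UMIs) with 1.09 (0.82 to 1.37). TIMP3, an inhibitor of matrix proteases that binds to the matrix, was at 609 and 1806 CPM (450 and 1479 UMIs) with 1.57 (1.41 to 1.72). The collagen chaperone SERPINH1 and the collagen receptor DDR1 were lower, with -0.85 (-1.65 to -0.08) and -1.99 (-3.05 to -1.04), and so was AGRN, another heparan sulfate proteoglycan, with -1.32 (-2.08 to -0.60). Over the 12 basement membrane partners in the files 7 were tested, with 1 higher and 2 lower. Of the synthesis genes 12 were tested, with 3 higher and 2 lower. The background of PC was 6.04% higher and 13.0% lower.

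Partner genes were also compared in STROMA and EC. Of the 23 synthesis genes tested in STROMA 2 were higher and 0 lower, beside a background of 8.12% and 10.6% of all genes, among them SERPINH1 at 60.01 and 97.6 CPM (71 and 184 UMIs) with 0.70 (0.30 to 1.12). SPARC, a collagen-binding matrix protein, was higher with 0.65 (0.33 to 0.97), FREM2, which links epithelium to basement membrane, lower with -1.01 (-1.61 to -0.42), and the integrin chain ITGA6, a laminin receptor, lower with -0.96 (-1.34 to -0.57). Of the 14 receptors tested this was the one called. TGFB1, the growth factor best known to raise matrix synthesis, was higher at 32.96 and 58.3 CPM (39 and 110 UMIs) with 0.82 (0.28 to 1.39), and the platelet-derived growth factor chain PDGFB with 1.36 (0.64 to 2.15). TGFB1 stood at 90.4 and 116 CPM (56 and 262 UMIs) in IMM and 94.9 and 104 CPM (250 and 210 UMIs) in EC, and within STROMA the 11 immune markers, all detected, summed to 753 CPM unperfused and 1724 CPM perfused and the 11 EC markers to 987 and 1648 CPM. ITGA6 and FREM2 stood higher in PT than in STROMA, at 375 and 397 CPM and at 80.6 and 83.5 CPM in PT. The 11 PT markers summed to 2038 CPM in unperfused and 1005 CPM in perfused STROMA. The part of immune, EC and tubule RNA in the stromal values was not tested. In EC, SERPINH1 went the other way, 81.6 and 50.6 CPM (215 and 102 UMIs) with -0.69 (-1.04 to -0.34), 1 of 2 synthesis genes lower and 0 higher among 20 tested, beside a background of 9.87% and 2.14%. The other was PLOD3, a lysyl hydroxylase, with -0.72 (-1.35 to -0.11). Of the 12 basement membrane partners in EC, FREM2 and NPNT were lower with -0.81 (-1.35 to -0.29) and -0.89 (-1.47 to -0.33). FREM1, named after its values were seen, was higher in EC with 1.05 (0.28 to 1.85). In STROMA FREM1 was called lower (36 and 27 UMIs), with -1.09 (-1.86 to -0.33), and in PT it stood far higher, at 316 and 348 CPM. The basement membrane linker NID1 was not called in either class, at -0.29 (-0.47 to -0.11) in STROMA and -0.06 (-0.33 to 0.22) in EC, and HSPG2 neither, at 0.27 (-0.01 to 0.54) and 0.25 (0.14 to 0.36).

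The remaining classes were counted by the same rule, as classes chosen after their values were seen. LOH had 1 of 30 members higher (background 1.71%) and 3 lower (background 11.0%), and the mixed IMM cluster 4 of 33 higher (background 4.51%) and 7 lower (background 8.63%). In CNT 0 of 17 members were higher (background 3.14%) and 1 lower (background 9.58%), and in DCT 0 of 14 were called in either direction (background 2.72% and 7.51%). IC-A had 2 of 15 higher (background 3.55%) and 1 lower (background 9.53%), among them LAMC1 with 0.77 (0.28 to 1.27). IC-B had 2 of 9 higher (background 3.63%) and 0 lower (background 6.49%), and injured PT 2 of 15 higher (background 4.81%) and 1 lower (background 6.06%). Among the cycling cells, 34 unperfused and 19 perfused nuclei, 4 of 9 were higher (background 12.6%) and 2 lower (background 10.8%).

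A few members are given here over the classes in which they reached 20 UMIs. The share of all genes with such directions was not computed, so the counts are not read as a trait of these members. COL17A1 had a ratio below 0 in 4 of 4 classes and was called lower in EC, LOH and PT. LAMB2 was below 0 in 8 of 9 classes and called lower in CNT, EC and STROMA, with PT above 0 at 0.41 (-0.43 to 1.25). COL5A1 was above 0 in 4 of 4 classes and called in EC alone. COL19A1 was above 0 in 4 of 5 classes. Other members had as many calls as COL17A1 and LAMB2. COL25A1 was called lower in IMM, PT and STROMA, COL28A1 in IC-A, LOH and PT, and COL4A4 in EC, IMM and cycling cells. LAMC1 was called higher in IC-A, PC and cycling cells. Classes of 1 library share its tissue piece and preparation, so they are not separate evidence. COL8A1 had no common direction: it was called higher in PC, IC-A, LOH and injured PT and lower in EC and IMM, and in STROMA it was at -0.32 (-0.63 to -0.02).

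**Figure D5:**
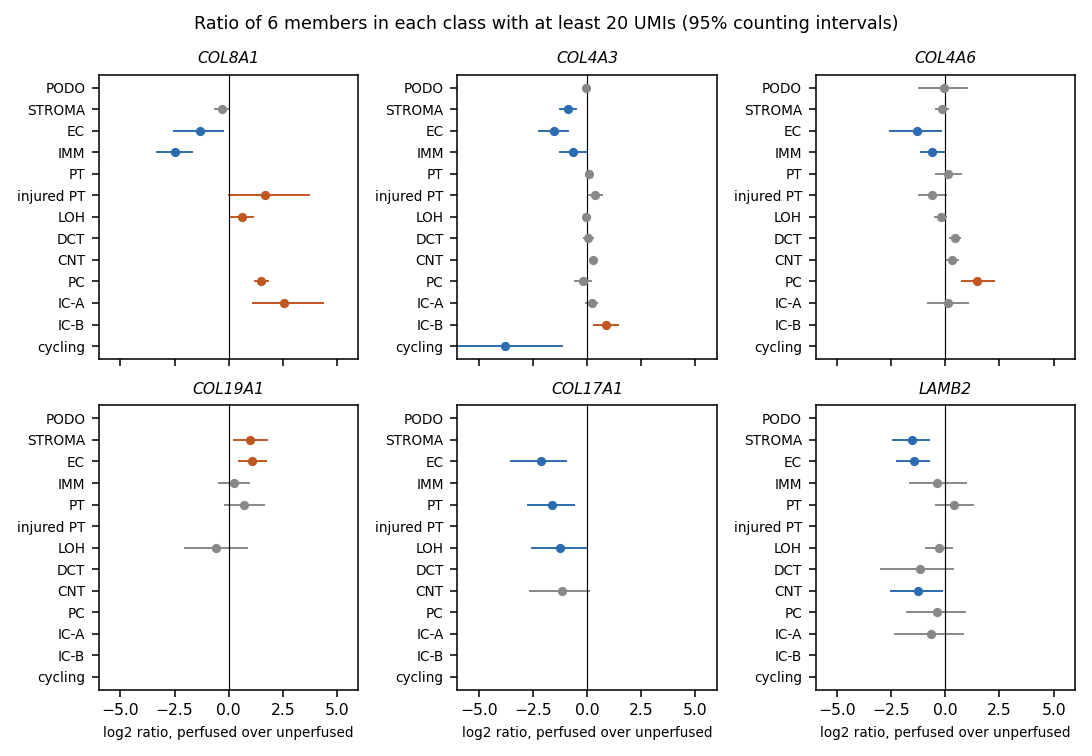
Log2 ratio of perfused over unperfused CPM of 6 members in each named class with at least 20 UMIs, with 95% counting intervals; orange is called higher and blue called lower. COL8A1 points lie to the right of 0 in PC, IC-A, LOH and injured PT and to the left in EC and IMM, while the 4 COL17A1 points all lie to the left. The interval of COL4A3 in cycling cells runs past the left edge.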

How the data were processed

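The authors aligned 10x Genomics 3′ single-nucleus reads with Cell Ranger 5.0.1 to an Ensembl pig genome, counting introns, and deposited the raw UMI counts of every gene in every barcode, not normalized. The deposited counts precede the study's removal of ambient RNA (SoupX), which was not run here because it needs empty droplets, not used here. Totals were 34415254 UMIs (unperfused) and 35525592 UMIs (perfused). Its limits of 500 to 6000 genes and at most 7% mitochondrial UMIs were applied, then Scrublet (scanpy 1.11.5), which called 9.12% and 8.27% of nuclei doublets. Seurat 5.3.0 (R 4.3.3) integrated the libraries on 2000 variable genes and 30 anchor dimensions, and clustered on 15 principal components at a resolution of 0.5.

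Clusters were named from 19 marker lists, 132 of whose 139 genes are in the files. A name needed 3 markers at a log2 fold over 1 that were found in 10% of nuclei, and top 10 genes with no more markers of another list. STROMA, EC and the cluster named IMM were clustered again. Classes were summed as counts, and ratios were taken with conditional binomial intervals. With 1 library per group no test was possible. A gene is described when it had at least 100 UMIs in kept nuclei or was called in STROMA, EC, PODO or PT, and partner genes are named when called in STROMA or EC with at least 100 UMIs, besides NID1, HSPG2 and SERPINH1. The ratios of PC, LOH, IC-A, IC-B, CNT, DCT, IMM, cycling cells and injured PT, and the partner genes of PC, were chosen after their values were seen, as were the subclusters of the cluster named IMM. Of the 5 partner lists, 77 of 80 genes are in the files. The values of 1 member are not reported here. The call rule was tested on simulated data, drawn as independent Poisson counts from class sums. The intervals assume the same model, so this does not test clumping of UMIs within nuclei or differences in make-up. Members, lists and settings were chosen with earlier results of these data known. Factors from edgeR 4.0.16 and DESeq2 1.42.0 were tried as other scalings.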

Additional observations from a re-analysis of the deposited data

Results flagged for a closer look

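Members are given here that passed the rule of 1.5-fold and an interval without 0 in opposite directions in different classes. The differences between classes were not tested. COL8A1 was higher in the perfused library in PC (1.52 on the log2 scale), IC-A (2.57, 5 and 20 UMIs), LOH (0.62) and injured PT (1.67, 4 and 16 UMIs), and lower in EC (-1.34, 33 and 10 UMIs) and IMM (-2.49, where 27 of the 37 unperfused UMIs lay in 1 nucleus). COL4A6 was higher in PC (1.46) and lower in EC (-1.30, 29 and 9 UMIs) and IMM (-0.62). COL4A3 was higher in IC-B (0.88, from 50 to 66 UMIs) and lower in STROMA (-0.88), EC (-1.51), IMM (-0.66) and cycling cells (-3.79, 21 and 1 UMIs). In STROMA, EC and IMM its mean level was below that of every tubule class named above. COL11A1 was higher in PC (1.17) and lower in STROMA (-1.05).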

How the results depend on the processing

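Over 15 other settings, and 3 more chosen after the data were seen, 157 of 169 recomputed counts and medians stayed within set limits. The limit was 1.5 times the main count, or the 95% interval of the main median over the members. Some settings changed nothing in a class: in PODO both other resolutions gave the main 197 genes higher and 317 lower. STROMA was highest for 14 to 18 members and PODO for 5 to 7. Thinning each nucleus to 1000 UMIs, which left out 198 unperfused and 334 perfused nuclei, lowered the number of members called to 2 in STROMA, 6 in EC and 1 in PC and gave medians of 0.222 in STROMA and 0.208 in PODO, where 3 members were left. A call past 2-fold left 3 in STROMA, 1 in PT and 4 in PC. Subtracting free RNA left 5 in EC, a minimum of 50 UMIs 6 in EC, and keeping doublets 1 in PODO. Without the mitochondrial limit the stromal median was 0.153. Of 405 values of 28 called members, 365 kept their call, 39 lost it, and COL4A3 in STROMA turned to 0.091 after subtraction of free RNA. It was -0.11 with equal subcluster weights, which leave out subclusters 9 and 10 of STROMA, where its level was high. LAMB2 in STROMA and EC, COL19A1 in EC, and COL8A1, COL23A1, COL4A6 and COL11A1 in PC kept their call under every alternative with a value. Another UMI minimum leaves the ratio and interval of a gene as they are, so it could not turn a call. In PC both other resolutions, members among the variable genes and no integration gave the main totals of 514 genes higher and 1102 lower. With thinning, COL23A1, COL4A6 and COL11A1 in PC gave no value.

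Factors from edgeR and DESeq2 shifted all EC ratios by 0.11 and 0.13 and all PC ratios by 0.11 and 0.11. Of all genes called, the share that was higher went from 17.8% to 33.9% and 36.7% in EC, from 38.3% to 49.7% and 53.6% in PODO, and from 31.8% to 46.5% and 47.5% in PC. No unnamed cluster had a stromal list as its best, so adding such clusters to STROMA gave no value. No paired analysis was possible because each group has 1 library. Depth limits the rare chains most: in PODO 12 of 47 members reached 20 UMIs.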

Other observations

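Cluster 14, led by DPP10, SLIT3 and CDH18 and left unnamed, held the highest mean level of several chains, often with another class close. These were COL4A5, COL18A1, COL26A1, COL6A2 and COL8A2, and among the genes outside the rule LAMA5. COL4A5 had a mean of 551 CPM against 530 CPM in PODO, and COL18A1 117 against 114 CPM in cluster 17. COL26A1 was at 83.4 against 67.4 CPM in cluster 17, and LAMA5 at 357 against 308 CPM in PC. COL6A2 lay further apart, at 52.6 against 27.4 CPM in STROMA, with overlapping intervals. COL8A2 rested on 4 and 2 UMIs. In cluster 14 COL4A6 was at 157 and 249 CPM (57 and 63 UMIs), COL8A1 at 146 and 126 CPM (53 and 32 UMIs) and COL27A1 at 49.6 and 55.3 CPM (18 and 14 UMIs). Each of these chains had a higher mean level in another class. COL4A3, at 96.4 and 67.1 CPM (35 and 17 UMIs), was far below its podocyte level. COL1A1 had 0 and 15.8 CPM (0 and 4 UMIs).

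Injured PT differed from PT in some basement membrane chains. LAMA1 was at 129 and 156 CPM in unperfused and perfused injured PT and 39.2 and 32.1 CPM in PT, COL4A2 at 668 and 906 and 335 and 394 CPM, and COL4A1 at 122 and 178 and 69.2 and 81.00 CPM. LAMB1 went the other way, with 528 and 496 CPM in injured PT and 721 and 779 CPM in PT. For all 4 genes the counting intervals of the classes did not overlap in either library. LAMC1, at 145 and 132 CPM in injured PT and 117 and 111 CPM in PT, had overlapping intervals in both. The share of all genes with intervals apart between these classes was not computed, so this is not read as a trait of these chains. In IC-A, COL28A1 was at 30.05 and 8.95 CPM (45 and 9 UMIs) in the unperfused and perfused library, a log2 ratio of -1.75 (-2.97 to -0.70).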
